A study of Homo sapiens with 12 samples.

Results

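The lysosome and autophagy genes described here are 52 genes named by symbol, of which 51 were found among the 51112 Ensembl gene identifiers of the expression table. ATG16L1 was not analysed here. They comprise 12 lysosomal hydrolases, 6 genes of the lysosomal membrane and lipid handling, 2 transcription factors, 5 proton pump subunits, 5 cargo receptors, 11 genes of autophagosome initiation, 9 genes of the ATG8 proteins and their conjugation, and the tethering gene VPS18. They were measured in K-562, a human line established from chronic myeloid leukemia in blast crisis, which carries the BCR-ABL1 fusion and has erythroid features. Si-711 is described by the submitters as an inhibitor of the NAD-dependent deacetylases sirtuin 1 and sirtuin 2. Cells in exponential growth were exposed to 5 µM Si-711 for 8 h, 24 h or 48 h, and untreated cells served as time 0, with 3 independent biological replicates for each of the 4 groups and 12 libraries in all. All comparisons with time 0 share the same 3 untreated libraries. The labels name neither a vehicle nor untreated cells kept for 8, 24 or 48 h, so exposure to Si-711 and time in culture cannot be told apart.

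Lysosomes are acidic compartments in which hydrolases break down material delivered by endocytosis and autophagy, and a vacuolar proton pump keeps them acid. In autophagy a membrane grows around cytoplasm, ATG8 proteins are coupled to its lipid, cargo receptors tie selected material to the ATG8 proteins, and the closed autophagosome fuses with a lysosome. TFEB and TFE3, of the MiT/TFE family, move to the nucleus when mTORC1 is inactive and bind the palindrome CACGTG in promoters of many lysosomal and autophagy genes. In erythroid cells selective autophagy through BNIP3L removes mitochondria during maturation. RNA levels alone give no measure of autophagic flux or of lysosomal activity.

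Because members with this palindrome feature in the 24 h results below, 4 promoters that hold its extended form TCACGTGA are shown first. They are RefSeq sequences of build GRCh38.p14, the 250 bases before the annotated start, with CACGTG in capitals. LAMP1 is at chr13:113296989-113297238 (plus strand), MCOLN1 at chr19:7522374-7522623 (plus strand), ATP6V0D1 at chr16:67481158-67481407 (minus strand) and GAA at chr17:80101331-80101580 (plus strand).
LAMP1: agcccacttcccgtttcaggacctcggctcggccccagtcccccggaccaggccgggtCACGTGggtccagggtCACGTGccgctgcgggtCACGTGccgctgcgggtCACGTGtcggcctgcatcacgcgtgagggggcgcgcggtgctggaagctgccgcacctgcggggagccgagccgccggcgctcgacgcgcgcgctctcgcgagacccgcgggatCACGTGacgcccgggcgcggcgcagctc
MCOLN1: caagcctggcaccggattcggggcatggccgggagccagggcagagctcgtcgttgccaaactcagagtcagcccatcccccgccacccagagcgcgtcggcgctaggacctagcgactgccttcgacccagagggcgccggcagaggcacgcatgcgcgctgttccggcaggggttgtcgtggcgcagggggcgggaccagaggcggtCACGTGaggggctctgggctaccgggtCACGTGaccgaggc
ATP6V0D1: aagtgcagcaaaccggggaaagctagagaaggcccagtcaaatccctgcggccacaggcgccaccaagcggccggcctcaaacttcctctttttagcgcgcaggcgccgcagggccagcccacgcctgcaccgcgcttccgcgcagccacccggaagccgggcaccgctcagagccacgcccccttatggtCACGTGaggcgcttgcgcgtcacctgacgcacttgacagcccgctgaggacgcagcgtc
GAA: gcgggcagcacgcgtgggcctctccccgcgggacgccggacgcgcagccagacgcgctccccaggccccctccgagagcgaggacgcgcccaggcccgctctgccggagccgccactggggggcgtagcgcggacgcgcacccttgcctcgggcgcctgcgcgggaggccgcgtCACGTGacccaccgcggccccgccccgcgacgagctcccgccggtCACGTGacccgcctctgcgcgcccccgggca
The LAMP1 window holds 5 copies of CACGTG, the MCOLN1 and GAA windows 2 each and the ATP6V0D1 window 1. The letters read the same on both strands, and TCACGTGA contains CACGTG. In windows of 250 bases before to 50 bases after the start, CACGTG was present in 7.26% of 35116 RefSeq promoters and TCACGTGA in 0.98%, or in a promoter of 8.78% and 1.18% of 27305 genes. Of the 42 members with a promoter in the RefSeq table, 9 held CACGTG (21.4%), namely ATG3, ATG14, ATP6V0D1, BNIP3, CTSA, CTSD, GAA, LAMP1 and MCOLN1. TCACGTGA was held by 6 of the 42 (14.3%). A match of letters is a description and not evidence of binding by any factor.

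Values are gene counts normalized by the authors, and totals per library ran between 27070528 and 28940867 over the 8 and 24 h libraries, between 34614827 and 37117837 over the 48 h ones and between 31387546 and 31718907 over the untreated ones. On the first principal component, which held 46.6% of the variance, replicate 1 at 24 h scored 20.0, and replicates 2 and 3 scored -10.1 and -8.65. Calls against untreated cells that were lost without that library are named below. For comparisons between treated times, gene calls lost when a library was left out are not named. Only counts of calls, or their ranges, are given for those runs. All 11 markers of K-562 erythroid and leukemic identity were detected in every group. Their summed level was 84577 to 107538 normalized counts at 8 h, between 93329 and 100817 at 24 h, and between 129988 and 132036 at 48 h, against 328481 to 582179 in untreated cells. The 6 lymphocyte markers summed to 212 to 270 at 8 h, between 110 and 247 at 24 h, and between 112 and 154 at 48 h, against 66.9 to 82.8 in untreated cells, with MS4A1 at 0 throughout and CD2 at 0 at 24 and 48 h. The 5 stromal and epithelial markers in the table summed to 8486 to 9925 at 8 h, between 6618 and 7037 at 24 h, and between 6412 and 8242 at 48 h, against 10905 to 11538 in untreated cells, with COL3A1 at 0 in untreated cells. In untreated cells that sum came mostly from KRT19 (mean 8078) and EPCAM (mean 3088), which averaged 3621 and 3651 at 48 h. The part of these shifts in the results below was not tested, and in bulk RNA fewer cells of a type and less RNA per cell cannot be told apart.

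In the authors' scaling the calls of lysosome and autophagy genes divided almost evenly between rises and falls at 8 and 24 h. Most of these genes rose at 48 h in that scaling, and the splits under other scalings follow below. All 51 passed the filter of at least 10 normalized counts in at least 3 libraries, so every member in the table was tested. Differences are on the log2 scale of normalized count plus 1, from 1 limma fit over all 15424 genes that passed, and an adjusted p under 0.05 is called. Gene positions are those of GENCODE release 29 on GRCh38, and all members are protein-coding genes. At 8 h against untreated cells, 12 members (23.5%) rose and 13 (25.5%) fell, beside 13.0% and 15.2% of all tested genes. At 24 h, 15 members (29.4%) rose and 18 (35.3%) fell, beside 22.9% and 24.7%. At 48 h, 29 members (56.9%) rose and 9 (17.6%) fell, beside 32.3% and 33.8%. These shares over all tested genes belong beside each count by role or list against untreated cells given below in the authors' scaling. They cover every gene that passed the filter, low ones included, and shares over genes of a like level were not computed.

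The median difference of the members against untreated cells was -0.10 at 8 h, -0.01 at 24 h and 0.42 at 48 h, beside -0.01, 0.02 and -0.05 over all tested genes. Scaling every library to the same total moved the median of all genes to 0.15 at 8 h, 0.20 at 24 h and -0.24 at 48 h, and centring on the median gene moved it to -0.10, -0.12 and 0.01. Relative to the median of all genes the members' median was -0.09 at 8 h, -0.03 at 24 h and 0.47 at 48 h, and -0.09, -0.04 and 0.46 with equal totals. The split of calls at 8 h was 14 up and 5 down with equal totals, 11 up and 17 down with median centring and 12 up and 6 down with quantile normalization. Over all tested genes these scalings gave 2884 up and 1077 down, 1658 and 3230, and 1869 and 1669. At 24 h the members' split was 21 up and 12 down with equal totals, 12 up and 21 down with median centring and 20 up and 13 down with quantile normalization. All tested genes then split 4760 up and 2653 down, 2839 and 4772, and 3413 and 3604. At 48 h the members' split was 25 up and 14 down with equal totals, beside 4136 up and 6162 down over all tested genes.

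**Figure D1:**
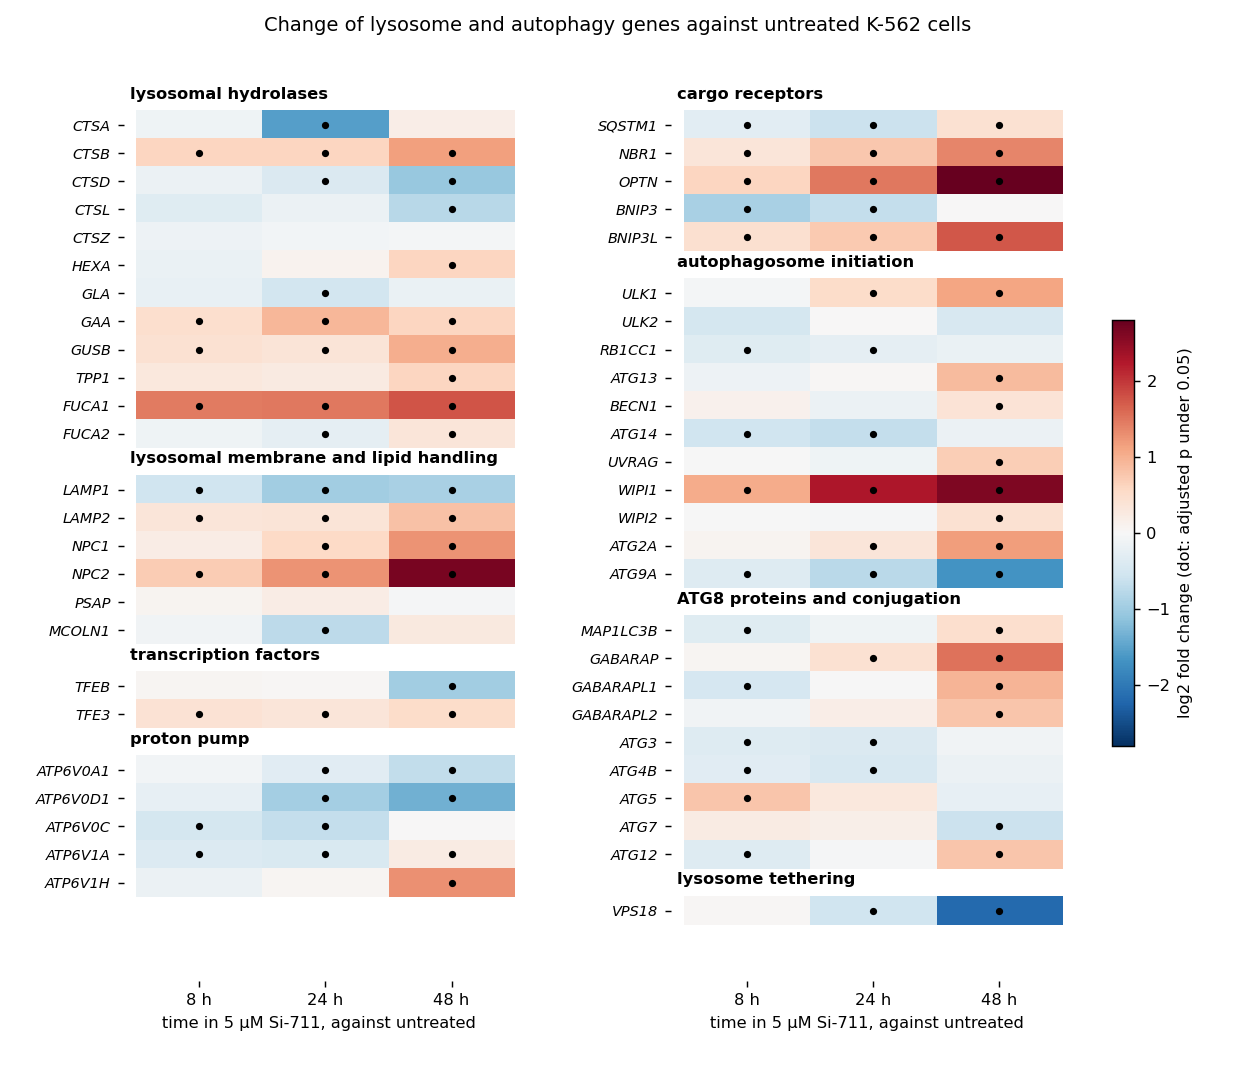
Log2 difference of each of the 51 lysosome and autophagy genes (rows, grouped by role) at 8, 24 and 48 h of Si-711 against untreated cells (columns), from 3 libraries per group. Red is higher and blue is lower than in untreated cells, a dot marks an adjusted p under 0.05, and the 48 h column holds 29 red and 9 blue calls.

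Over the 3 comparisons with untreated cells, 11 members rose at every time, 8 rose at 48 h with no earlier call and 4 rose at 24 and 48 h. LAMP1 and ATG9A fell at every time. A further 6 members fell at 8 and 24 h with no call at 48 h (ATP6V0C, BNIP3, RB1CC1, ATG14, ATG3 and ATG4B). MAP1LC3B, GABARAPL1 and ATG12 fell at 8 h and rose at 48 h, and SQSTM1 and ATP6V1A fell at 8 and 24 h and rose at 48 h. CTSZ, PSAP and ULK2 were called at no time. The shares of all tested genes with these patterns were not computed, and the 3 comparisons share the untreated libraries. These counts therefore describe the members only and show nothing particular to them.

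The 12 hydrolases, which degrade proteins, glycans and lipids in the lysosome, moved in both directions. At 8 h CTSB, GAA, GUSB and FUCA1 rose and none fell by limma, with 3 below untreated cells at an unadjusted p under 0.05. The same 4 rose at 24 h, and CTSA, CTSD, GLA and FUCA2 fell. At 48 h 7 rose (CTSB, HEXA, GAA, GUSB, TPP1, FUCA1 and FUCA2), and the cathepsins CTSD and CTSL fell. The median difference of the hydrolases was -0.13 at 8 h, 0.01 at 24 h and 0.47 at 48 h, and at 8 h its sign turned with equal totals (0.04) and quantile normalization (0.03) and at 24 h with median centring (-0.13). With median centring 4 hydrolases rose and 4 fell at 8 h, and at 24 h 6 rose and 1 fell with equal totals and 6 rose and 2 fell with quantile normalization. At 48 h equal totals gave 6 up and 3 down.

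FUCA1, an alpha-L-fucosidase that trims fucose from glycoproteins (ENSG00000179163, chr1:23845077-23868294, minus strand), had 574, 537 and 608 normalized counts in untreated cells, 1296, 2153 and 1402 at 8 h, 1482, 2002 and 1352 at 24 h and 1997, 2138 and 1738 at 48 h. All 9 treated libraries lay above all untreated ones. The difference was 1.46 at 8 h (adjusted p = 0.000131), 1.47 at 24 h (adjusted p = 2.84e-05) and 1.77 at 48 h (SE 0.18, adjusted p = 1.61e-06).

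CTSB, the cysteine protease cathepsin B (ENSG00000164733, chr8:11842524-11869448, minus strand), had 2656, 2700 and 2853 normalized counts in untreated cells, 3621, 4726 and 4250 at 8 h, 3909, 4712 and 3854 at 24 h and 6440, 5988 and 5803 at 48 h. Its treated libraries all lay above the untreated ones, and those at 48 h above the rest. The difference was 0.61 at 8 h (adjusted p = 0.00104), 0.60 at 24 h (adjusted p = 0.000391) and 1.15 at 48 h (SE 0.10, adjusted p = 4.63e-07).

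CTSD, the aspartic protease cathepsin D (ENSG00000117984, chr11:1752752-1764573, minus strand), went the other way, with 3602, 3930 and 3711 normalized counts in untreated cells, 3197, 3594 and 3246 at 8 h, 2264, 3267 and 3102 at 24 h and 1958, 2082 and 1414 at 48 h. The 48 h libraries lay below all others. The difference was -1.06 at 48 h (SE 0.15, adjusted p = 3.09e-05). The 24 h call (-0.40, adjusted p = 0.0431) was lost in 9 of the 21 alternatives, among them those without 24 h replicate 1 (-0.23), without any 1 untreated library, with equal totals (-0.21) and with quantile normalization (-0.16). The cysteine protease CTSL had 1705, 1937 and 1856 normalized counts at 48 h, against 3389, 3394 and 2729 in untreated cells, with no overlap and a difference of -0.79 (adjusted p = 0.000131).

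CTSA, the carboxypeptidase that protects beta-galactosidase and neuraminidase (ENSG00000064601, chr20:45890144-45898820, plus strand), was a low and uneven gene, with 75.8, 114 and 156 normalized counts in untreated cells, 55.4, 127 and 148 at 8 h, 22.4, 95.4 and 24.1 at 24 h and 133, 193 and 76.0 at 48 h. One 24 h library lay within the untreated range, and the other 24 h libraries lay below it. The 24 h difference was -1.54 (SE 0.55, adjusted p = 0.0353). Its call was lost in 7 of the 21 alternatives. These included equal totals, no filter, and runs without 24 h replicate 1 (-1.18) or 3 or untreated replicate 2 or 3.

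GAA, the acid alpha-glucosidase of glycogen breakdown, had 517, 551 and 518 normalized counts in untreated cells, 700.1, 742 and 745 at 8 h, 1065, 957 and 997 at 24 h and 756, 873 and 791 at 48 h. Its highest group was 24 h, and no treated library overlapped the untreated ones. The difference was 0.46 at 8 h (adjusted p = 0.00406), 0.93 at 24 h (adjusted p = 9.16e-06) and 0.61 at 48 h (adjusted p = 0.000109). GUSB, a beta-glucuronidase, differed by 0.43 at 8 h (adjusted p = 0.00157), 0.35 at 24 h (adjusted p = 0.00232) and 1.01 at 48 h (adjusted p = 1.09e-07). HEXA, a subunit of the ganglioside-cleaving hexosaminidase, rose at 48 h (0.60, adjusted p = 4.20e-06), as did TPP1, a tripeptidyl peptidase (0.59, adjusted p = 0.00278). FUCA2, a fucosidase related to FUCA1, differed by -0.26 at 24 h (adjusted p = 0.00843) and 0.34 at 48 h (adjusted p = 0.000749), and with equal totals both calls were lost. GLA, an alpha-galactosidase, fell at 24 h (-0.51, adjusted p = 0.000387).

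The 6 genes of the lysosomal membrane and lipid handling included opposite changes of the glycoproteins LAMP1 and LAMP2. LAMP2 rose and LAMP1 fell at every time. The cholesterol export genes NPC1 and NPC2 rose, NPC1 from 24 h on and NPC2 at every time. At 48 h the group counted 3 up and 1 down with a median of 0.55, and with equal totals the median was 0.36.

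LAMP1 (ENSG00000185896, chr13:113297241-113323672, plus strand) had 5009, 4790 and 5250 normalized counts in untreated cells, 3444, 3390 and 3392 at 8 h, 2019, 2912 and 2854 at 24 h and 2934, 2478 and 2670 at 48 h. Every treated library lay below every untreated one. The difference was -0.56 at 8 h (adjusted p = 0.0045), -0.97 at 24 h (adjusted p = 2.93e-05) and -0.90 at 48 h (SE 0.12, adjusted p = 1.92e-05). LAMP2, whose splice forms include the receptor of chaperone-mediated autophagy (ENSG00000005893, chrX:120427827-120469365, minus strand), had 10980, 11076 and 11060 normalized counts in untreated cells, 13411, 15423 and 13368 at 8 h, 13357, 15222 and 14138 at 24 h and 19805, 20260 and 18878 at 48 h. Every treated library lay above every untreated one, and the 48 h libraries lay highest. The difference was 0.35 at 8 h (adjusted p = 0.00438), 0.37 at 24 h (adjusted p = 0.00132) and 0.83 at 48 h (SE 0.07, adjusted p = 4.54e-07). Splice forms were not separated in the gene-level values.

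NPC2, the soluble lysosomal protein that hands cholesterol to NPC1 (ENSG00000119655, chr14:74476192-74494177, minus strand), had 267, 211 and 291 normalized counts in untreated cells, 413, 484 and 367 at 8 h, 720.4, 637 and 498 at 24 h and 1499, 1729 and 1582 at 48 h. The 4 groups did not overlap and lay in the order of time. The difference was 0.72 at 8 h (adjusted p = 0.00642), 1.26 at 24 h (adjusted p = 4.49e-05) and 2.65 at 48 h (SE 0.17, adjusted p = 1.97e-08), a 6.28-fold level at 48 h on that scale. NPC1, the membrane protein that passes the cholesterol on (ENSG00000141458, chr18:23506184-23586898, minus strand), had 1396, 1408 and 1462 normalized counts in untreated cells, 1769, 1549 and 1604 at 8 h, 2205, 2088 and 1987 at 24 h and 3339, 3417 and 3487 at 48 h. Here too the groups lay apart in the order of time. The 8 h difference of 0.20 did not pass (adjusted p = 0.068), and the later ones were 0.56 at 24 h (adjusted p = 7.49e-05) and 1.26 at 48 h (SE 0.08, adjusted p = 1.80e-08).

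MCOLN1, the lysosomal calcium channel that acts upstream of TFEB, had 292, 306 and 313 normalized counts at 24 h, against 460.3, 501 and 561 in untreated cells. Only at 24 h did its libraries all lie below the untreated ones, with a difference of -0.73 (adjusted p = 0.000234). At 48 h the difference was 0.27 (adjusted p = 0.0601), which did not pass. PSAP, the precursor of the saposins, averaged 15463 ± 2474 at 48 h, against 15747 ± 787 in untreated cells (SD, n = 3 each), and passed at no time.

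The MiT/TFE factors parted at 48 h. TFEB (ENSG00000112561, chr6:41683978-41736259, minus strand) had 288, 235 and 243 normalized counts in untreated cells, 266, 259 and 267 at 8 h, 241, 278 and 267 at 24 h and 159, 113 and 122 at 48 h. Values at 8 and 24 h lay within the untreated range, and those at 48 h lay below every other library. The difference was 0.05 at 8 h and 0.04 at 24 h, neither called, and -0.97 at 48 h (SE 0.17, adjusted p = 0.000236). TFE3 (ENSG00000068323, chrX:49028726-49043486, minus strand) had 991, 1109 and 1227 normalized counts in untreated cells, 1359, 1642 and 1391 at 8 h, 1511, 1372 and 1308 at 24 h and 1538, 1573 and 1623 at 48 h. No treated library lay below the highest untreated one. The difference was 0.40 at 8 h (adjusted p = 0.0129), 0.34 at 24 h (adjusted p = 0.0183) and 0.51 at 48 h (SE 0.11, adjusted p = 0.000733). Leaving out untreated replicate 1 or 8 h replicate 2 ended the call at 8 h, and that at 24 h was lost without untreated replicate 1 or 24 h replicate 1 and with median centring (0.20).

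Read against the palindrome, 8 of the 9 members with CACGTG in the promoter fell at 24 h (88.9%) and 1, GAA, rose. Of the 32 tested members whose listed promoter lacked it, 7 fell (21.9%) and 11 rose. Over all tested genes with a listed promoter, 35.6% of 1356 with the palindrome and 26.6% of 9582 without it fell at 24 h, and 18.1% and 23.7% rose. At 8 h 4 of the 9 fell and 1 rose, and of the 32 without it 7 fell and 8 rose. Over all tested genes at 8 h, 23.5% with the palindrome fell and 10.3% rose, against 16.4% and 13.9% without it. At 48 h 3 of the 9 fell and 1 rose, and of the 32 without it 5 fell and 21 rose. Over all tested genes at 48 h, 42.1% of those with the palindrome fell and 28.2% rose, and 33.4% of those without it fell and 34.6% rose. These shares were not tested, and the 24 h falls of CTSA and CTSD were lost with equal totals and when single libraries were left out.

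**Figure D2:**
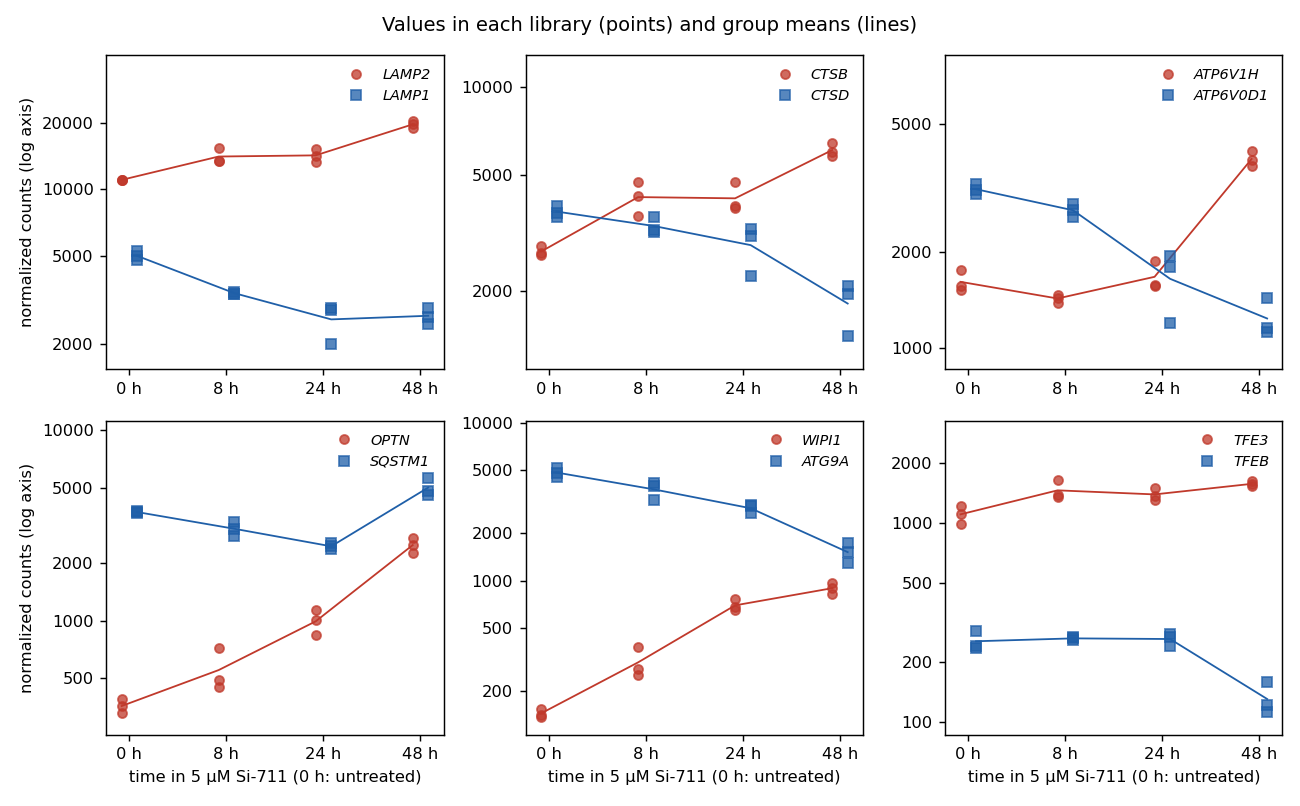
Normalized counts (log axis) of 12 members in each library, by time, with a line through the group means of 3 libraries; each panel pairs genes of one role. LAMP2 lies above and LAMP1 below their untreated values at all 3 treated times, and TFEB at 48 h (113 to 159) lies below all its other libraries.

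The vacuolar proton pump has a V1 sector in the cytosol that splits ATP and a V0 sector in the membrane that carries protons. Of its 5 members 2 fell at 8 h and 4 fell at 24 h, and at 48 h 2 rose and 2 fell. By limma 0 rose at 8 or 24 h, also at an unadjusted p under 0.05, and with equal totals 1 rose at 24 h. The group's median was -0.22 at 8 h and -0.42 at 24 h, negative under each scaling tried. Its 48 h median was 0.02, and it was -0.17 with equal totals and -0.01 with quantile normalization. Within the pump the members did not move together at 48 h.

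ATP6V0D1, a V0 subunit at the joint of the sectors (ENSG00000159720, chr16:67438014-67481237, minus strand), had 3038, 3114 and 3253 normalized counts in untreated cells, 2812, 2698 and 2572 at 8 h, 1200, 1940 and 1795 at 24 h and 1433, 1119 and 1158 at 48 h. All 24 h and 48 h libraries lay below all untreated and 8 h ones. The difference was -0.96 at 24 h (adjusted p = 0.00019) and -1.35 at 48 h (SE 0.15, adjusted p = 3.49e-06). ATP6V0A1, a membrane subunit of V0 with several isoforms (ENSG00000033627, chr17:42458844-42522611, plus strand), had 6535, 6750 and 6902 normalized counts in untreated cells, 6494, 6381 and 6338 at 8 h, 5178, 5676 and 5368 at 24 h and 4270, 3993 and 4335 at 48 h. Values at 48 h lay below all others, with a difference of -0.68 (SE 0.07, adjusted p = 7.99e-07). Its 24 h call (-0.32, adjusted p = 0.00138) was lost with equal totals (-0.13) and with quantile normalization (-0.05).

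ATP6V0C, the proteolipid of the rotating ring, had 5848, 6300 and 7030 normalized counts in untreated cells, 4958, 4140 and 4512 at 8 h, 3977, 4008 and 4083 at 24 h and 6274, 6316 and 6812 at 48 h. It lay below untreated cells at 8 and 24 h only. The difference was -0.49 at 8 h (adjusted p = 0.00112), -0.66 at 24 h (adjusted p = 3.73e-05) and 0.02 at 48 h (adjusted p = 0.848). ATP6V1A, the catalytic V1 subunit, had 4847, 4795 and 4772 normalized counts in untreated cells, 3797, 3662 and 3662 at 8 h, 3893, 3344 and 3584 at 24 h and 6031, 5073 and 5850 at 48 h. The 8 and 24 h libraries lay below and the 48 h libraries above all untreated ones, with differences of -0.37, -0.42 and 0.23 (adjusted p = 0.00431, 0.000876 and 0.0224). The 48 h call was lost with equal totals (0.04) and without untreated replicate 2 or 3 or 48 h replicate 1 or 3, and the earlier calls with quantile normalization.

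ATP6V1H, a regulatory V1 subunit (ENSG00000047249, chr8:53715557-53843558, minus strand), had 1755, 1514 and 1560 normalized counts in untreated cells, 1467, 1381 and 1436 at 8 h, 1876, 1573 and 1559 at 24 h and 3868, 3691 and 4127 at 48 h. The 48 h libraries lay above all others, at 2.42 times the untreated level (1.28, adjusted p = 7.39e-08, SE 0.09).

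The remaining pump genes were taken as a list of 19, of which 15 passed the filter. At 48 h 7 rose and 3 fell with a median of 0.38, and at 24 h 3 rose and 5 fell with a median of -0.05. At 8 h 4 rose and 4 fell with a median of -0.10. TCIRG1, the a3 isoform of the subunit that ATP6V0A1 encodes as a1, averaged 3799 ± 394 at 48 h, against 1186 ± 114 in untreated cells (SD, n = 3 each), a difference of 1.68 (adjusted p = 3.46e-08). It also rose at 8 h (0.48, adjusted p = 0.00709) and 24 h (0.81, adjusted p = 6.99e-05). ATP6V0A2, the a2 isoform, named here after its values were seen, rose at 48 h as well (0.86, adjusted p = 0.000167). ATP6V1B2 and ATP6V0B, also named after their values were seen, fell at 8, 24 and 48 h. Their 48 h differences were -0.87 and -0.50 (adjusted p = 1.82e-06 and 0.000147). ATP6V1F, a small V1 subunit, averaged 13549 ± 1349 at 48 h, against 6864 ± 397 in untreated cells (0.98, adjusted p = 5.07e-07). ATP6V1E2, an alternative form of the V1 E subunit, averaged 99.0 ± 19.7 at 48 h, against 226 ± 13.1 in untreated cells (-1.20, adjusted p = 7.37e-05).

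**Figure D3:**
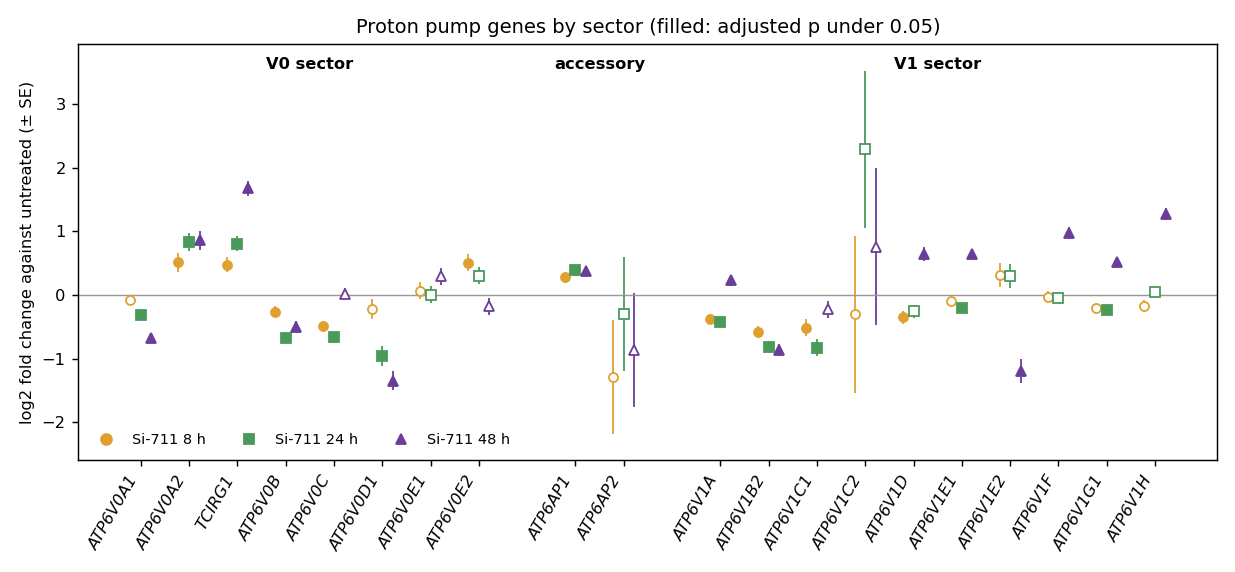
Log2 difference against untreated cells, with its standard error, of each tested proton pump gene at 8, 24 and 48 h, grouped into V0, accessory and V1 genes; filled points have an adjusted p under 0.05. At 48 h ATP6V1H (1.28) and TCIRG1 (1.68) lie above 0 and ATP6V0D1 (-1.35) and ATP6V0A1 (-0.68) below it.

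The cargo receptors, which link marked cargo or mitochondria to ATG8 proteins, had their highest median at 48 h. NBR1, OPTN and BNIP3L rose at every time, and SQSTM1 joined them at 48 h after falling at 8 and 24 h. Their median was 0.33 at 8 h, 0.73 at 24 h and 1.38 at 48 h, and it was positive under each scaling tried. With equal totals 3 of the 5 rose at 48 h, without SQSTM1.

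OPTN, a receptor for ubiquitin-marked mitochondria and bacteria (ENSG00000123240, chr10:13099449-13138308, plus strand), had 355, 387 and 327 normalized counts in untreated cells, 450.4, 716 and 486 at 8 h, 839.6, 1136 and 1004 at 24 h and 2265, 2721 and 2510 at 48 h. The 4 groups did not overlap and followed the order of time. The difference was 0.60 at 8 h (adjusted p = 0.0177), 1.47 at 24 h (adjusted p = 1.55e-05) and 2.81 at 48 h (SE 0.17, adjusted p = 1.36e-08), 6.99 times the untreated level at 48 h. The 8 h call was lost without 8 h replicate 2 (0.39) or untreated replicate 3 and with quantile normalization.

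NBR1, a ubiquitin-binding receptor (ENSG00000188554, chr17:43170481-43211689, plus strand), had 2854, 3056 and 2737 normalized counts in untreated cells, 3572, 3891 and 3411 at 8 h, 5008, 4943 and 4636 at 24 h and 7553, 7608 and 7274 at 48 h. Its groups also lay apart in the order of time. The difference was 0.33 at 8 h (adjusted p = 0.00539), 0.75 at 24 h (adjusted p = 5.02e-06) and 1.38 at 48 h (SE 0.07, adjusted p = 6.00e-09).

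BNIP3L, the mitochondrial receptor of erythroid mitophagy (ENSG00000104765, chr8:26382898-26505636, plus strand), had 1098, 1175 and 1147 normalized counts in untreated cells, 1434, 1909 and 1354 at 8 h, 2023, 1985 and 1696 at 24 h and 4166, 3698 and 3558 at 48 h. Every treated library lay above every untreated one. The difference was 0.44 at 8 h (adjusted p = 0.0177), 0.73 at 24 h (adjusted p = 0.000314) and 1.74 at 48 h (SE 0.12, adjusted p = 5.59e-08). The 8 h call was lost without 8 h replicate 2 (0.29) or untreated replicate 1 and with median centring.

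Its relative BNIP3, a mitophagy receptor induced by low oxygen (ENSG00000176171, chr10:131966455-131982013, minus strand), had 1376, 1295 and 1157 normalized counts in untreated cells, 745, 587 and 718 at 8 h, 1039, 641 and 766 at 24 h and 1367, 1084 and 1425 at 48 h. The 8 and 24 h libraries lay below and the 48 h libraries across the untreated range. The difference was -0.90 at 8 h (adjusted p = 0.00184), -0.67 at 24 h (adjusted p = 0.00523) and 0.01 at 48 h (adjusted p = 0.957).

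SQSTM1, also called p62, which binds ubiquitin and is itself degraded by autophagy (ENSG00000161011, chr5:179806398-179838078, plus strand), had 3676, 3709 and 3790 normalized counts in untreated cells, 3034, 3307 and 2793 at 8 h, 2457, 2371 and 2557 at 24 h and 4607, 5638 and 4788 at 48 h. The 8 and 24 h libraries lay below and the 48 h libraries above all untreated ones. The difference was -0.29 at 8 h (adjusted p = 0.0251), -0.60 at 24 h (adjusted p = 0.000117) and 0.42 at 48 h (SE 0.09, adjusted p = 0.000878). The 48 h call was lost with equal totals (0.23), and the 8 h call with equal totals, with quantile normalization and without 8 h replicate 1 or 3 or any 1 untreated library.

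Of 14 further cargo receptors tested from a list of 15, 9 rose and 1 fell at 48 h, with a median of 0.64. CCPG1, a receptor for endoplasmic reticulum, averaged 13488 ± 989 at 48 h, against 2289 ± 168 in untreated cells (2.56, adjusted p = 1.48e-09). CALCOCO2, also called NDP52, averaged 6476 ± 127 at 48 h, against 1888 ± 123 in untreated cells (1.78, adjusted p = 2.41e-09). RETREG1, another receptor for endoplasmic reticulum, averaged 159 ± 29.4 at 48 h, against 41.9 ± 9.61 in untreated cells (1.91, adjusted p = 1.46e-05). These 3 rose at 8 and 24 h too.

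The 11 initiation genes belong to the ULK1 kinase complex, the lipid kinase complex around BECN1, and the WIPI, ATG2 and ATG9 proteins that feed the growing membrane. At 8 h 1 rose and 3 fell, at 24 h 3 rose and 3 fell, and at 48 h 7 rose and 1 fell. The median was -0.05 at 8 h, -0.04 at 24 h and 0.42 at 48 h; with equal totals it was 0.12, 0.15 and 0.23. Equal totals gave 2 up and 0 down at 8 h, 3 up and 2 down at 24 h and 6 up and 2 down at 48 h, and median centring gave 2 up and 5 down at 24 h. ATG9A was the member that fell at 48 h.

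WIPI1, which reads the lipid made by the BECN1 complex (ENSG00000070540, chr17:68420948-68457513, minus strand), had 155, 138 and 143 normalized counts in untreated cells, 254, 385 and 277 at 8 h, 765, 681 and 655 at 24 h and 831, 965 and 899 at 48 h. All treated libraries lay above the untreated ones, and those at 24 and 48 h above those at 8 h. The difference was 1.04 at 8 h (adjusted p = 0.0005), 2.26 at 24 h (adjusted p = 6.31e-07) and 2.62 at 48 h (SE 0.16, adjusted p = 1.49e-08), 6.14 times the untreated level at 48 h. Its homologue WIPI2 rose at 48 h (0.42, adjusted p = 0.000173) and differed by -0.04 at 24 h, which did not pass.

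ATG9A, a scramblase on vesicles that seed the membrane (ENSG00000198925, chr2:219219380-219229717, minus strand), had 4550, 4810 and 5159 normalized counts in untreated cells, 3974, 3252 and 4145 at 8 h, 2998, 2670 and 2966 at 24 h and 1524, 1288 and 1747 at 48 h. The groups lay apart, in falling order with time. The difference was -0.36 at 8 h (adjusted p = 0.0373), -0.75 at 24 h (adjusted p = 0.000188) and -1.68 at 48 h (SE 0.12, adjusted p = 5.04e-08). The 8 h call was lost in 8 of the 21 alternatives. These included equal totals, quantile normalization, and runs without 8 h replicate 1 or 2 or any 1 untreated library.

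ULK1, the kinase that starts autophagy (ENSG00000177169, chr12:131894651-131923167, plus strand), had 953, 1002 and 784 normalized counts in untreated cells, 781, 888 and 981 at 8 h, 1419, 1238 and 1221 at 24 h and 1686, 2307 and 1892 at 48 h. The 24 and 48 h libraries lay above all others. The difference was -0.05 at 8 h (adjusted p = 0.845), 0.51 at 24 h (adjusted p = 0.008) and 1.10 at 48 h (SE 0.14, adjusted p = 9.55e-06). ULK2, its homologue, stood near the detection limit, with 43.2, 7.20 and 1.65 normalized counts in untreated cells, 2.71, 19.5 and 3.47 at 8 h, 14.2, 9.67 and 4.94 at 24 h and 4.95, 7.11 and 6.81 at 48 h, and was not called. ATG2A, which transfers lipid to the growing membrane (ENSG00000110046, chr11:64894546-64917248, minus strand), had 1183, 1151 and 1276 normalized counts in untreated cells, 1164, 1370 and 1297 at 8 h, 1786, 1473 and 1350 at 24 h and 2266, 3139 and 2781 at 48 h. Values at 48 h stood apart (1.17, adjusted p = 3.29e-06, SE 0.13). The 24 h call (0.34, adjusted p = 0.0438) was lost in 10 of the 21 alternatives, among them those without 24 h replicate 1 (0.23), without 24 h replicate 2 and without any 1 untreated library.

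Among the other initiation genes, ATG13, a partner of ULK1, rose at 48 h (0.89, adjusted p = 4.58e-05). UVRAG and BECN1, of the lipid kinase complexes, rose at 48 h, UVRAG by 0.69 (adjusted p = 1.59e-05) and BECN1 by 0.38 (adjusted p = 0.00266), and the call of BECN1 was lost with equal totals. ATG14, which directs that kinase to autophagosomes, fell at 8 h (-0.56, adjusted p = 0.0134) and 24 h (-0.67, adjusted p = 0.00229). RB1CC1, the scaffold of the ULK1 complex, fell at 8 h (-0.34, adjusted p = 0.00692) and 24 h (-0.25, adjusted p = 0.022). The 8 h call of ATG14 was lost with equal totals (-0.40) and without untreated replicate 2. Both calls of RB1CC1 were lost with equal totals (-0.18 at 8 h and -0.06 at 24 h) and with quantile normalization (-0.21 and -0.04), and its 24 h call also without untreated replicate 2 or 24 h replicate 2 or 3.

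The ATG8 proteins coat the autophagosome, and ATG3, ATG4B, ATG5, ATG7 and ATG12 process them and couple them to lipid. All 4 ATG8 members rose at 48 h. At 8 h 5 of the 9 genes fell and ATG5 rose, and at 24 h 1 rose and 2 fell. The median was -0.33 at 8 h, -0.01 at 24 h and 0.46 at 48 h, and the 24 h sign turned with equal totals (0.17) and with quantile normalization (0.13). With equal totals 1 rose and 1 fell at 8 h, 3 rose and 2 fell at 24 h, and 5 rose and 4 fell at 48 h.

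GABARAP (ENSG00000170296, chr17:7240014-7242770, minus strand) had 2286, 2210 and 2345 normalized counts in untreated cells, 2376, 2794 and 2016 at 8 h, 3134, 3272 and 2774 at 24 h and 7124, 5953 and 6520 at 48 h. Values at 48 h lay far above all others. The difference was 0.06 at 8 h, not called, 0.42 at 24 h (adjusted p = 0.00759) and 1.51 at 48 h (SE 0.11, adjusted p = 8.20e-08), and the 24 h call was lost with median centring (0.28). GABARAPL1 (ENSG00000139112, chr12:10212458-10223130, plus strand) had 1238, 1388 and 1216 normalized counts in untreated cells, 846, 1015 and 894 at 8 h, 1234, 1332 and 1242 at 24 h and 2435, 2398 and 2622 at 48 h. It lay below all untreated libraries at 8 h and above them at 48 h, with differences of -0.48 (adjusted p = 0.00254) and 0.96 (SE 0.09, adjusted p = 1.06e-06). GABARAPL2 averaged 4117 ± 168 at 48 h, against 2407 ± 44.5 in untreated cells (SD, n = 3 each), a difference of 0.77 (adjusted p = 1.02e-06).

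MAP1LC3B, the LC3 protein used most as an autophagosome marker (ENSG00000140941, chr16:87383995-87404779, plus strand), had 5542, 5198 and 5267 normalized counts in untreated cells, 4365, 4073 and 4223 at 8 h, 5511, 4521 and 4790 at 24 h and 7416, 6963 and 7697 at 48 h. The 8 h libraries lay below and the 48 h libraries above all untreated ones. The difference was -0.34 at 8 h (adjusted p = 0.00751), -0.12 at 24 h, not called, and 0.46 at 48 h (SE 0.08, adjusted p = 0.000188). The 8 h call was lost with equal totals (-0.18) and quantile normalization (-0.16). MAP1LC3B2, a near copy, was at or below 7.43 normalized counts in every library.

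ATG12, the ubiquitin-like protein joined to ATG5, had 1917, 1938 and 1707 normalized counts in untreated cells, 1545, 1263 and 1511 at 8 h, 2107, 1825 and 1535 at 24 h and 3171, 3071 and 3257 at 48 h. The 48 h libraries lay above all untreated ones. The difference was -0.37 at 8 h (adjusted p = 0.0309) and 0.77 at 48 h (adjusted p = 5.23e-05). At 8 h ATG12 lost its call in 6 of the 21 alternatives. Equal totals, quantile normalization, and runs without 8 h replicate 2 or untreated replicate 1 or 2 were among them. Its partner ATG5 (ENSG00000057663, chr6:106045423-106325791, minus strand) had 621, 610.0 and 795 normalized counts in untreated cells, 1045, 1087 and 1333 at 8 h, 895, 837 and 746 at 24 h and 486, 719 and 541 at 48 h. It was above every untreated library at 8 h only, with a difference of 0.78 (adjusted p = 0.00345), and differed by -0.22 at 48 h (adjusted p = 0.238). ATG7, the E1-like enzyme of both couplings, fell at 48 h (-0.60, adjusted p = 0.00652). ATG3, the E2-like enzyme, fell at 8 h (-0.36, adjusted p = 0.00604) and 24 h (-0.40, adjusted p = 0.00138), and so did the protease ATG4B (-0.33, adjusted p = 0.00963 at 8 h and -0.45, adjusted p = 0.000558 at 24 h), and both 8 h calls were lost with equal totals.

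VPS18, a core subunit of the HOPS and CORVET complexes that tether membranes before fusion (ENSG00000104142, chr15:40894430-40903975, plus strand), had 889, 839 and 948 normalized counts in untreated cells, 798, 979 and 976 at 8 h, 464, 729.7 and 642 at 24 h and 248, 226 and 133 at 48 h. The 48 h libraries lay below all others, at 0.220 times the untreated level (-2.18, adjusted p = 1.28e-06, SE 0.22). The 24 h call (-0.57, adjusted p = 0.0486) was lost without 24 h replicate 1 (-0.38) and under most other omissions. Of 8 other tethering genes tested from a list of 10, 3 rose and 3 fell at 48 h. TGFBRAP1, a CORVET subunit, averaged 494 ± 219.6 at 48 h, against 2019 ± 247 in untreated cells (-2.15, adjusted p = 0.000135). VPS33A, of both complexes, averaged 1545 ± 303 at 48 h, against 2876 ± 194 in untreated cells (-0.91, adjusted p = 6.22e-05). VPS16, which binds VPS33A, averaged 2231 ± 133 at 48 h, against 1265 ± 44.5 in untreated cells (0.82, adjusted p = 5.84e-06).

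Set side by side, the 12 hydrolases counted 4 up and none down at 8 h, 4 up and 4 down at 24 h and 7 up and 2 down at 48 h. The 5 pump members counted 0 up and 2 down, 0 up and 4 down, and 2 up and 2 down at those times. The 25 autophagosome and cargo genes counted 5 up and 10 down, 7 up and 7 down, and 16 up and 2 down. Over all tested genes 13.0% rose and 15.2% fell at 8 h, 22.9% and 24.7% at 24 h, and 32.3% and 33.8% at 48 h. The hydrolases had 33.3% up and 0% down, 33.3% and 33.3%, and 58.3% and 16.7%. The pump members had 0% and 40%, 0% and 80%, and 40% and 40%. The autophagosome and cargo genes had 20% and 40%, 28% and 28%, and 64% and 8%. With equal totals the hydrolases counted 4 up and 0 down, 6 up and 1 down, and 6 up and 3 down, the pump 0 and 2, 1 and 3, and 1 and 2, and the autophagosome and cargo genes 6 and 2, 9 and 6, and 14 and 6. With median centring the 8 h counts were 4 up and 4 down for the hydrolases, 0 and 2 for the pump and 4 and 10 for the autophagosome and cargo genes. The balance of the hydrolases and of the autophagosome and cargo genes at 8 and 24 h thus changed with the scaling, as did that of all tested genes. The 5 pump members had more falls than rises at both times under each of the 4 scalings. In the authors' scaling the 15 other tested pump genes counted 4 up and 4 down at 8 h and 3 up and 5 down at 24 h. Differences between the roles were not tested.

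**Figure D4:**
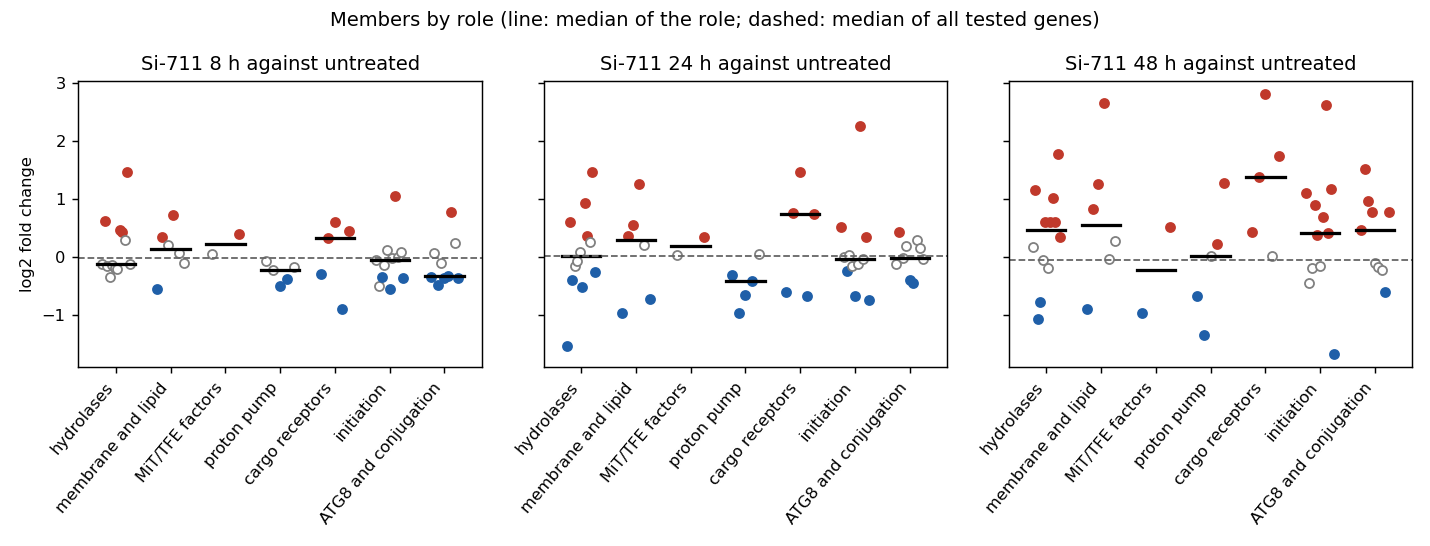
Log2 difference against untreated cells of the members of each role at 8, 24 and 48 h; red points rose, blue points fell and open points were not called, black lines are the medians of the role and the dashed line is the median of all tested genes (VPS18 is not drawn). The cargo receptors have medians of 0.33, 0.73 and 1.38, and the proton pump -0.22, -0.42 and 0.02.

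At 48 h against 24 h, 32 members (62.7%) rose and 10 (19.6%) fell, beside 25.1% and 27.1% of all tested genes. Scaling to equal totals left 20 up and 13 down, with the median of all genes at -0.44, and the members' median relative to it was 0.57 under both scalings. NPC2 differed by 1.39 (adjusted p = 1.42e-05), OPTN by 1.34 (adjusted p = 2.09e-05) and ATP6V1H by 1.23 (adjusted p = 4.23e-07). VPS18 differed by -1.62 (adjusted p = 4.11e-05) and TFEB by -1.01 (adjusted p = 0.000276). MCOLN1, which had fallen by 24 h, had 633, 637 and 563 normalized counts at 48 h, against 292, 306 and 313 at 24 h, a difference of 1.00 (adjusted p = 1.29e-05).

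At 24 h against 8 h, 11 members (21.6%) rose and 7 (13.7%) fell, beside 8.31% and 9.83% of all tested genes. WIPI1 differed by 1.21 (adjusted p = 0.000547) and OPTN by 0.87 (adjusted p = 0.00472). ATP6V0D1 differed by -0.74 (adjusted p = 0.00619) and MCOLN1 by -0.63 (adjusted p = 0.00417). These counts rest on single libraries: without 24 h replicate 1 they were 7 up and 2 down, without 8 h replicate 1 the falls were 2, without 24 h replicate 3 they were 4, and without 8 h replicate 3 there were 7 up and 3 down. The split was 8 up and 9 down with median centring and 13 up and 5 down with quantile normalization. Over all tested genes these scalings gave 1022 up and 1917 down, and 1601 and 1598. At 48 h against 8 h, 30 members (58.8%) rose and 10 (19.6%) fell, beside 29.8% and 32.2% of all tested genes. With equal totals 21 members rose and 13 fell, beside 2848 up and 6816 down over all tested genes.

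Further genes of the same pathways came from lists of 168 genes, 165 of them in the table, that are no members. Of 38 other hydrolases 13 rose and 1 fell at 8 h, 15 rose and 3 fell at 24 h, and 21 rose and 7 fell at 48 h, with medians of 0.53, 0.47 and 0.72. IDUA, which cleaves glycosaminoglycans, averaged 462 ± 231 at 48 h, against 42.2 ± 9.05 in untreated cells (3.31, adjusted p = 7.73e-06). CTSS, a cathepsin of antigen-presenting cells, averaged 1929 ± 345 at 48 h, against 231 ± 103 in untreated cells (3.13, adjusted p = 3.34e-07), and it had risen by 8 h (2.56, adjusted p = 4.13e-05). ACP2, an acid phosphatase, averaged 142 ± 41.1 at 48 h, against 20.8 ± 15.1 in untreated cells (2.92, adjusted p = 0.00524).

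Of 25 other membrane and sorting genes 12 rose and 7 fell at 48 h, with a median of 0.27. LAPTM5, a lysosomal membrane protein of blood cells, averaged 1648 ± 684 at 8 h, 1548 ± 371 at 24 h and 2161 ± 555 at 48 h, against 104 ± 46.9 in untreated cells, and its 48 h difference was 4.44 (adjusted p = 8.48e-08). CTNS, the cystine exporter, averaged 35.4 ± 18.1 at 48 h, against 239 ± 76.8 in untreated cells (-2.79, adjusted p = 2.71e-05). LMBRD1, needed for cobalamin export, was uneven, with 319, 3.87 and 60.7 normalized counts at 48 h, against 216, 606 and 427 in untreated cells, and differed by -3.06 (adjusted p = 0.0476) with overlapping groups.

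Of 25 other autophagosome genes tested from a list of 27, 13 rose and 4 fell at 48 h, with a median of 0.88. ATG16L2, a homologue of ATG16L1, averaged 599 ± 122 at 48 h, against 53.0 ± 22.5 in untreated cells (3.53, adjusted p = 5.40e-07). EPG5, a tether between autophagosomes and lysosomes, averaged 3690 ± 139.7 at 48 h, against 628 ± 88.6 in untreated cells (2.56, adjusted p = 6.07e-08). ATG2B, the homologue of ATG2A, averaged 2470 ± 743 at 48 h, against 512 ± 30.9 in untreated cells (2.23, adjusted p = 1.54e-05).

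Of 31 genes of mTORC1, AMPK and MiT/TFE signalling tested from a list of 34, 3 rose and 4 fell at 8 h, 4 rose and 10 fell at 24 h, and 18 rose and 7 fell at 48 h. DDIT4, also called REDD1, which restrains mTORC1, averaged 9623 ± 1659 at 8 h, 21046 ± 4505 at 24 h and 3130 ± 253 at 48 h, against 2394 ± 732 in untreated cells. Its difference was 2.04 at 8 h (adjusted p = 3.84e-05) and 3.17 at 24 h (adjusted p = 4.43e-07), and 0.44 at 48 h, which did not pass (adjusted p = 0.088). RRAGD, a GTPase that recruits TFEB and mTORC1 to the lysosome, averaged 2073 ± 132 at 48 h, against 393 ± 37.2 in untreated cells (2.40, adjusted p = 1.07e-08). AKT1S1, an inhibitory subunit of mTORC1 also called PRAS40, averaged 586 ± 40.3 at 48 h, against 2729 ± 110.3 in untreated cells (-2.22, adjusted p = 1.66e-08).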

How the data were processed

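The deposited table holds a signal, gene counts normalized by the authors with DESeq2 after cutadapt and Salmon on GRCh38, per the submitters' processing notes; neither versions nor an annotation release are given in the sources used here. The values are already normalized and are not raw counts, so no count test was run. Salmon shares reads between near-identical transcripts on a statistical basis, so copies of a gene can trade reads, and whether strand was used in counting is not stated. Symbols came from a gene name table for 50026 identifiers and from GENCODE release 29 for 267 more, which also gave GRCh38 coordinates. Tests used the 15424 genes that reached 10 in 3 or more libraries, on log2 of the value plus 1, with limma 3.58.1 in R 4.3.3, a mean trend, 1 fit over 4 groups, two-sided tests, and Benjamini-Hochberg adjustment over all tested genes in each of 6 comparisons, called under 0.05. The method was checked on simulated data. Errors are SD over 3 libraries, and p-values measure the spread between the biological replicates as labelled.

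Alternatives were 0.5 or 8 added before the log, no filter, a mean of at least 50, equal totals, median centring, quantile normalization, only the compared groups, the replicate number as a block, and each library left out. Values per library are given for up to 4 members of each role with the largest called difference against untreated cells and for TFEB, TFE3, LAMP1, SQSTM1 and MAP1LC3B, and a few more members were added after their values were seen. Up to 3 genes are named per pathway list, those called with the largest difference and a mean of at least 50, and exceptions are marked. The members and lists were chosen with earlier results of these data known. NCOA4, VPS11, SESN2 and PECAM1 were not analysed here.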

Additional observations from a re-analysis of the deposited data

Results flagged for a closer look

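Some members had called differences from untreated cells in opposite directions at 2 treated times, and the difference between those times was itself called by limma. SQSTM1 was higher at 48 h than at 24 h by 1.02 and than at 8 h by 0.72 on the log2 scale. GABARAPL1 was higher at 48 h than at 8 h by 1.44, ATG12 by 1.14 and MAP1LC3B by 0.80. ATP6V1A was higher at 48 h than at 24 h by 0.65 and than at 8 h by 0.60. FUCA2 was higher at 48 h than at 24 h by 0.59. In each case every 48 h library lay above every library of the earlier time. Their directions against untreated cells share the 3 untreated libraries, and several of those calls were lost under other scalings, as given with each gene.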

How the results depend on the processing

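Of the 96 member calls against untreated cells, 70 were kept in every alternative run and 26 were lost in at least 1. Adding 0.5 or 8 before the log or asking for a mean of at least 50 lost none of the 96, equal totals lost 18, quantile normalization 12, no filter 6 and median centring 4. Falls at 8 h numbered 5 with equal totals and 6 with quantile normalization, in place of 13, and falls at 48 h 14 with equal totals, in place of 9. At 24 h against 8 h there were 3 falls with no filter, in place of 7. At 48 h against 24 h there were 20 rises with equal totals, in place of 32, and 6 falls with median centring, in place of 10. With equal totals the sign turned for GLA (-0.048), ATG3 (-0.076) and ATG4B (-0.10) at 48 h against 24 h and for BECN1 (-0.10) and ATG3 (-0.093) at 48 h against 8 h. With quantile normalization it turned for FUCA2 at 24 h against untreated cells (0.0081). Equal totals and centring change the scaling by construction, and which scaling is nearest to RNA per cell was not tested.

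Leaving out 1 library gave 9 to 12 rises and 9 to 14 falls at 8 h, 13 to 16 and 14 to 18 at 24 h, and 28 to 29 and 9 to 11 at 48 h. It gave 7 to 12 rises and 2 to 9 falls at 24 h against 8 h, 30 to 33 and 9 to 10 at 48 h against 24 h, and 28 to 31 and 9 to 10 at 48 h against 8 h. At 24 h against 8 h the 2 falls came without 8 h replicate 1 or 24 h replicate 1 and the 9 falls without 48 h replicate 2.

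Deviations of libraries with the same replicate number correlated by -0.07 to 0.14 over 18 pairs. Those of other pairs correlated by -0.16 to 0.11 over 36. Between 8 and 24 h the same-number values (0.044, 0.137 and 0.097) all lay above the others (-0.122 to 0.032). In every other pair of groups the same-number values and the others overlapped. Correlations this small cannot decide whether the numbers pair the samples. With the replicate block the rises and falls were 12 and 14 at 8 h, 15 and 17 at 24 h, 29 and 9 at 48 h, 12 and 7 at 24 h against 8 h, 33 and 9 at 48 h against 24 h, and 31 and 10 at 48 h against 8 h. With 3 libraries per group, low and uneven genes such as CTSA and ULK2 carry standard errors too large to show small differences. Depth in reads is not given in the normalized values.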
